A study of Mus musculus with 9 samples.

Results

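The genes described here encode the vascular endothelial growth factor (VEGF) ligands Vegfa, Vegfb, Vegfc and Pgf, their receptors Flt1, Kdr and Flt4, and the angiopoietins Angpt1 and Angpt2 with their receptor Tek. They are 10 genes, taken by name from a table of 33450 gene rows. All 10 had a row, and all 10 were among the 16929 rows that reached at least 1 FPKM in 1 or more groups with a valid status. Levels are in FPKM, a fragment count corrected for transcript length and library size, so different genes can be set side by side.

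The RNA came from ovaries of C57BL/6J mice aged 15 weeks. Control mice (n = 3) ate a standard chow with 16% fat. The other 6 ate a diet with 60% fat for 10 weeks and were divided by outcome: 3 stayed lean (HFLN) and 3 became obese (HFOB), so those 2 groups were not assigned. The stage of the ovarian cycle at dissection is not stated in the labels. The table gives 1 FPKM per group with a lower and an upper bound, and values per animal were not used here. Thus no SD and no p-value can be given. Neither the confidence level of these intervals nor the sequencing depth is known. Where 3 values of a gene follow each other, they stand for Control, HFLN and HFOB in that order.

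VEGF ligands are secreted and act on receptor tyrosine kinases of endothelial cells, where Kdr carries most of the growth signal of Vegfa. Angpt1 activates Tek and steadies vessels, while Angpt2 can block that signal and loosens vessels so that they can sprout or regress. In the ovary these genes are known for the rapid growth of capillaries around large follicles and in the corpus luteum, where granulosa and luteal cells make Vegfa.

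Upstream sequence is printed for Vegfa, Vegfb and Vegfc, the VEGF ligands among the members whose rows had the highest levels. They were chosen because the order of the groups differed between these rows, though with overlapping intervals. The row of Vegfb also holds Nudt22 and Dnajc4, so its level and order are not those of Vegfb alone. RefSeq (GRCm38.p6) promoter entries were found for 8 of the 10 genes; Angpt1 and Angpt2 had none. Each line gives the 250 bases before the annotated start, 5′ to 3′ on the gene's own strand, and no GENCODE exon lies in these 3 windows. They are chr17:46032378-46032627 (minus strand) for Vegfa, chr19:6987652-6987901 (minus strand) for Vegfb and chr8:54077282-54077531 (plus strand) for Vegfc. Capitals mark 2 motifs on either strand, the core bound by hypoxia-inducible factors (ACGTG or GCGTG, in reverse CACGT or CACGC) and the GC box (GGGCGG, in reverse CCGCCC). No match of one overlapped a match of the other.
Vegfa: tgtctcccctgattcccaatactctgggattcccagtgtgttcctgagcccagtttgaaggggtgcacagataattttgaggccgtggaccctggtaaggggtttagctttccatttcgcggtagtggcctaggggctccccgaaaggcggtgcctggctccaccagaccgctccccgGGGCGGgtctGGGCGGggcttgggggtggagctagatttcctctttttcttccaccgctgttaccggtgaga
Vegfb: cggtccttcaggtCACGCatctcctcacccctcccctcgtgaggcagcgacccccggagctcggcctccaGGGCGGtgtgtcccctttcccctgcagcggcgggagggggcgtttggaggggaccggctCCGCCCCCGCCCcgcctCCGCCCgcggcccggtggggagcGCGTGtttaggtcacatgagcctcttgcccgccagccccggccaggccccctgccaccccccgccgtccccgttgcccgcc
Vegfc: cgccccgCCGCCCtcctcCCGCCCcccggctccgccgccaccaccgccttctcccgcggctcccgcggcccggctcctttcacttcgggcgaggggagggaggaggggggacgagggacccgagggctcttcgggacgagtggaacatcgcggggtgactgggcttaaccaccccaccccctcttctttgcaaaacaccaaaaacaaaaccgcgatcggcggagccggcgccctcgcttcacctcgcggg

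The hypoxia core occurred 2 times in the window of Vegfb and 0 times in those of Vegfa and Vegfc. Among all 32851 windows of that length in the table, 38.6% held at least 1 match. GC boxes numbered 2 in Vegfa, 4 in Vegfb and 2 in Vegfc, and 32.7% of all windows held 1 or more. Of the 8 genes with an entry, 4 had a hypoxia core (Vegfb, Pgf, Flt1 and Kdr) and 7 a GC box in the window. The windows of Pgf, Flt1 and Kdr lie inside the annotated span of the gene, and that of Tek runs across its start. Those of Pgf, Kdr and Flt4 overlap an annotated exon. The counts over the 8 genes thus do not all describe sequence before the outermost start. Matches describe these letters only, and binding was not measured.

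Vegfa (chromosome 17, 46016993 to 46032377, minus strand) was the member whose level differed most between the groups. Its levels were 84.4 FPKM (interval 52.7 to 116), 74.0 (48.2 to 99.8) and 57.5 (38.2 to 76.9). Obese mice thus had the lowest level and chow-fed mice the highest, and the 3 intervals overlapped. Against Control, the HFOB level was 1.47-fold lower, a log2 fold of -0.55 on the scale of log2(FPKM + 1), which is used for every log2 fold given here. The intervals allow a ratio of HFOB to Control between 0.328 and 1.46, which includes equality.

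HFLN stood 1.14-fold below Control for Vegfa, a log2 fold of -0.19, and HFOB stood 1.29-fold below HFLN, a log2 fold of -0.36. Against Control, 3.02% of all rows tested had a lower log2 fold in HFOB than Vegfa, as did 1.37% of the 2268 protein-coding rows whose mean level lay within 2-fold of that of Vegfa. In HFLN against Control the same shares were 17.0% and 23.1%, well inside the bulk of rows. Between the 2 groups on the high-fat diet they were 5.12% and 1.23%. The row joins 6 RefSeq transcripts of Vegfa, so the splice forms that differ in binding to matrix are not resolved. In bulk RNA of an organ, fewer cells of a type and less RNA per cell cannot be told apart.

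Pgf (chromosome 12, 85166637 to 85177785), placental growth factor, which binds Flt1 and not Kdr, was the least abundant ligand. The levels were 3.12 FPKM (interval 1.05 to 5.19), 2.93 (1.01 to 4.85) and 2.40 (0.713 to 4.09). The groups fell in the same order as for Vegfa, with intervals that reached up to 70.3% of the value on each side. The HFOB level was 0.770 of the Control level as a plain ratio, with a log2 fold of -0.28. An order of Control above HFLN above HFOB was found in 2 of the 10 genes, Vegfa and Pgf, and in 16.8% of all rows tested. With FPKM rescaled so that protein-coding rows had equal sums in the groups, it was found in 0 of the 10 genes and in 1270 of the 16929 rows.

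Vegfc (chromosome 8, 54077532 to 54186454), the ligand of Flt4 that drives growth of lymphatic vessels, ran in the reverse order. Measured levels were 9.40 FPKM (interval 4.91 to 13.9), 9.61 (5.03 to 14.2) and 10.7 (5.79 to 15.7). Its log2 fold in HFOB against Control was 0.17, and the groups overlapped over most of their intervals.

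Vegfb (chromosome 19, 6982472 to 6987651), a ligand of Flt1 linked to fatty-acid uptake by endothelium, cannot be read alone, since its row merges 3 genes, Vegfb, Nudt22 and Dnajc4. The merged row had 94.9 FPKM (interval 49.5 to 140), 83.2 (45.1 to 121) and 97.2 (53.8 to 141). HFLN was lowest here, with log2 folds of -0.19 against Control and 0.22 for HFOB against HFLN.

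**Figure D1:**
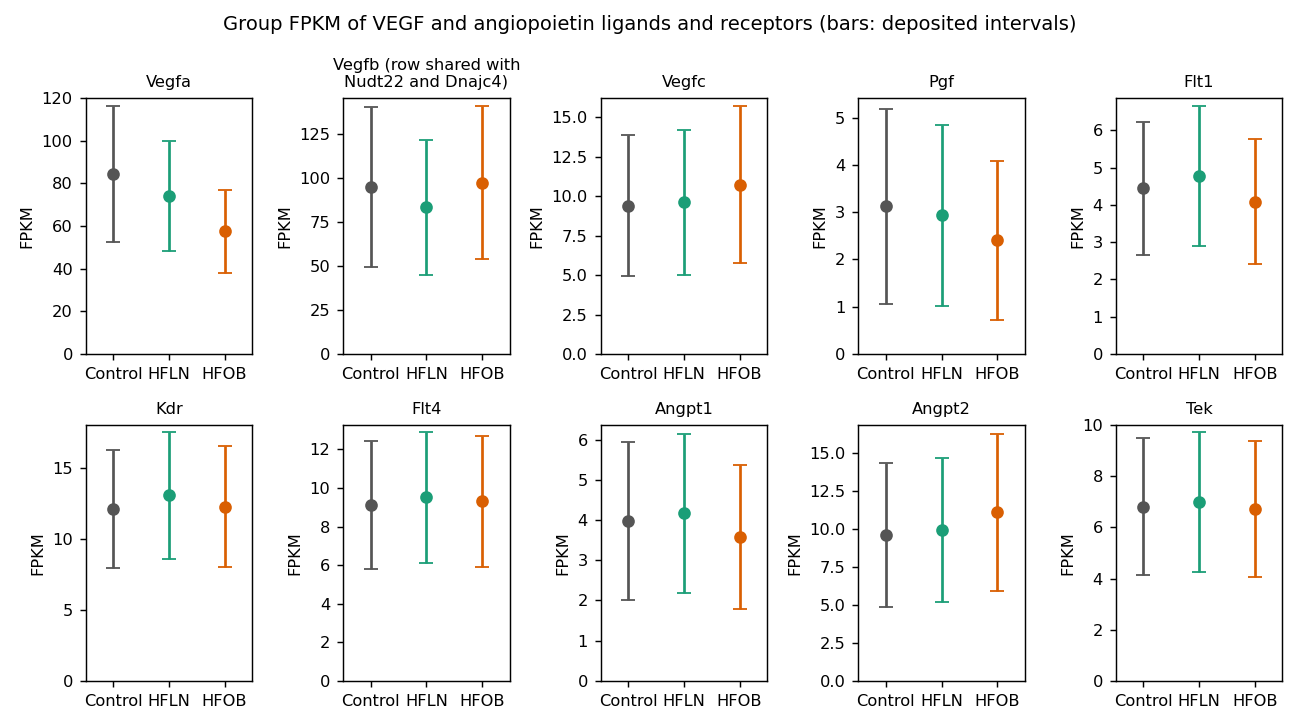
FPKM of the 10 genes in Control, HFLN and HFOB, each panel with its own axis from 0. Points are the deposited group values and bars the deposited intervals. Vegfa steps down from 84.4 to 74.0 and 57.5 FPKM, while the 3 groups of every other gene lie close together relative to their bars.

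The VEGF receptors differed little. Kdr (chromosome 5, 75932827 to 75979072), the main signalling receptor of Vegfa, had 12.1 FPKM (interval 7.91 to 16.2), 13.1 (8.59 to 17.5) and 12.2 (7.98 to 16.5). Flt4 (chromosome 11, 49609679 to 49652739), the receptor of Vegfc on lymphatic and some blood vessels, had 9.13 FPKM (interval 5.81 to 12.5), 9.51 (6.11 to 12.9) and 9.30 (5.91 to 12.7). The lowest group of Flt4 reached 96.0% of the highest. For Kdr this share was 92.4%.

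Flt1 (chromosome 5, 147561604 to 147726438), which binds Vegfa tightly but signals weakly and has a soluble decoy form, was the least abundant of these receptors. It was measured at 4.45 FPKM (interval 2.66 to 6.24), 4.78 (2.90 to 6.66) and 4.09 (2.42 to 5.76). HFLN was the highest group for all 3 receptors, by log2 folds of 0.05 to 0.11 over Control, within the spread of the intervals. The row rests on 1 RefSeq transcript, so the decoy form was not measured apart.

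Among the angiopoietins, Angpt2 was the more abundant. Angpt1 (chromosome 15, 42424667 to 42676977), whose span is crossed by the antisense gene Gm17473, had 3.99 FPKM (interval 2.02 to 5.95), 4.17 (2.18 to 6.15) and 3.58 (1.79 to 5.38). Angpt2 (chromosome 8, 18690263 to 18741562) had 9.60 FPKM (interval 4.87 to 14.3), 9.94 (5.18 to 14.7) and 11.1 (5.94 to 16.3). HFOB was thus the lowest group for Angpt1 and the highest for Angpt2, with log2 folds against Control of -0.12 and 0.19 and overlapping intervals.

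Tek (chromosome 4, 94739086 to 94874976), the receptor of both angiopoietins, was level, at 6.80 FPKM (interval 4.13 to 9.48), 6.99 (4.26 to 9.72) and 6.71 (4.06 to 9.36). Its lowest group reached 96.0% of its highest.

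The level of Angpt2 carries a reservation. The gene lies inside Mcph1, which is read from the opposite strand, and 1 annotated Mcph1 exon falls within its span, though no Angpt2 exon overlaps an exon of Mcph1. A stranded kit was used per the labels, and the strand setting of the quantification is not known, so reads of the 2 genes may not be told apart. A second row with the Angpt2 identifier held 2.14, 2.65 and 1.56 FPKM, with intervals from 0 to 16.2, 18.4 and 13.6. Mcph1 itself stood at 4.86, 5.14 and 4.75 FPKM. The second row runs against the first, with its lowest level in HFOB. With both rows added, the log2 fold of Angpt2 in HFOB against HFLN was 0.01 in place of 0.15.

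In no comparison did a member pass the rule for a call, which asks for a fold of at least 2 with intervals that do not overlap. The count was 0 of 10 in HFLN against Control, where 0.284% of all rows tested passed, 0 of 10 in HFOB against Control (0.366%) and 0 of 10 in HFOB against HFLN (0.195%). Intervals overlapped in all 30 pairs of groups; they stayed apart for 0.284%, 0.372% and 0.207% of rows. Calls were rare among all genes too, so these counts do not set the members apart. With intervals narrowed to 50% of their width, Vegfa in HFOB against Control was the 1 pair that separated, as did 2.04% of rows. No member separated in HFLN against Control (2.22% of rows) or HFOB against HFLN (1.82%).

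By a smaller threshold, a log2 fold of at least 0.32 in size, 0 of 10 members passed in HFLN against Control, where 5.58% of rows were higher and 7.83% lower by that much. In HFOB against Control 1 of 10 was lower (Vegfa) and 0 were higher, beside 7.08% and 3.79% of rows. In HFOB against HFLN 1 of 10 was lower (Vegfa again) and 0 were higher, beside 5.77% and 4.84%. Median log2 folds of the 10 were 0.04, 0.00 and -0.07 in these comparisons, and those of all rows were 0.00, -0.01 and -0.01. Both comparisons with Control use the same control values, and HFOB enters both comparisons in which Vegfa passed.

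Between 5 and 7 of the 10 genes lay on one side of 0 in each comparison. In HFLN against Control 7 were higher and 3 lower, and the 3 lower ones were the ligands Vegfa, Vegfb and Pgf. HFOB against Control had 5 higher and 5 lower, and HFOB against HFLN 3 higher (Vegfb, Vegfc and Angpt2) and 7 lower. Of all rows tested, 50.1%, 47.0% and 47.7% were higher and 49.9%, 53.0% and 52.2% lower. When FPKM were rescaled so that protein-coding rows had the same sum in each group, the median of all rows in HFLN against Control moved to 0.19. It moved to 0.07 in HFOB against Control and to -0.12 in HFOB against HFLN. Every median given with equal protein-coding sums is to be read beside these values. In HFLN against Control Vegfa then had a log2 fold of 0.02, and all 10 genes lay above Control. The direction of Vegfa, Vegfb and Pgf in that comparison thus turns with the scaling. Measured from the median of protein-coding rows, Vegfa lay at -0.19 as deposited and -0.17 after rescaling. In HFOB against Control, Vegfa lay at -0.54 and -0.53 on that measure.

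**Figure D2:**
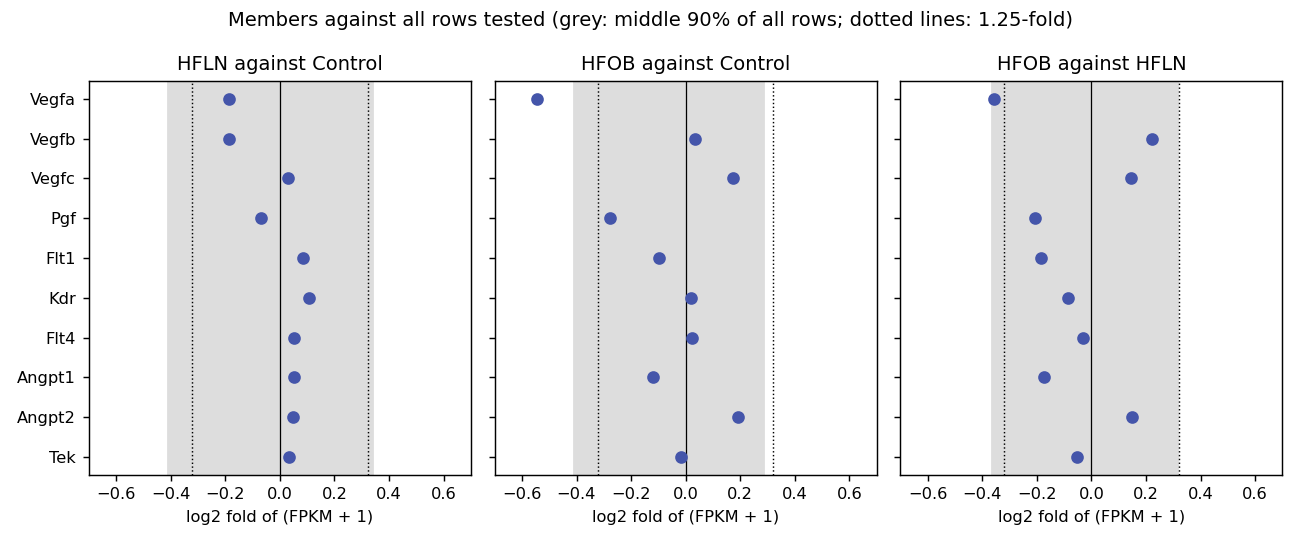
Log2 fold of (FPKM + 1) of each gene in the 3 comparisons. Grey bands hold the middle 90% of all 16929 rows tested and dotted lines mark a log2 fold of 0.32 in size. Vegfa in HFOB against Control, at -0.55, is the 1 point outside a band, whose lower edge lies at -0.41.

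Ratios between members were taken within each group. FPKM are per length, so these compare levels of transcripts, and the balance of signalling was not measured. Angpt2 exceeded Angpt1 2.41-fold in Control, 2.39-fold in lean and 3.10-fold in obese mice. The intervals allow 81.8% to 709%, 84.2% to 674% and 110% to 912% of the Angpt1 level, so the groups overlap. Added to its second row, Angpt2 gave a smaller shift of this ratio between HFOB and Control, at a log2 change of 0.26 in place of 0.37.

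Kdr exceeded Flt1 2.71-fold, 2.73-fold and 2.99-fold in Control, HFLN and HFOB, which is close to constant beside ranges such as 1.27 to 6.10 in Control. The ratio of Vegfa to its receptor Kdr was 7.00 (3.25 to 14.7), 5.67 (2.75 to 11.6) and 4.70 (2.31 to 9.63). Vegfa also stood lower relative to Vegfc in HFOB, at 5.36-fold the level of Vegfc against 8.98-fold in Control and 7.70-fold in HFLN. Relative to the Vegfb row, Vegfa measured 0.890, 0.889 and 0.592. Pgf kept a small share of the Vegfa level throughout, at 3.70%, 3.96% and 4.18%. The order of the groups in the ratios to Kdr and Vegfc was that of Vegfa itself, and all ranges overlapped.

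**Figure D3:**
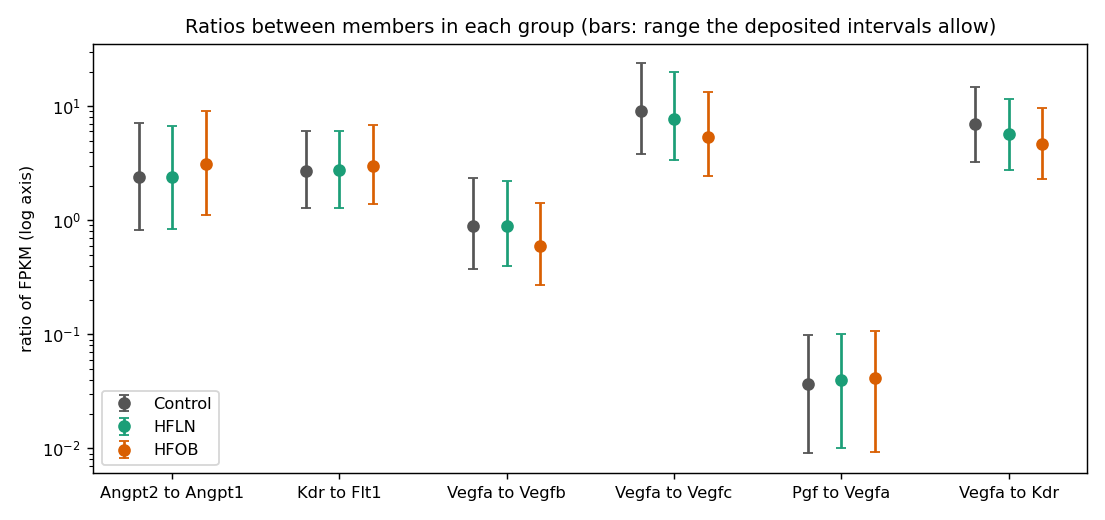
Ratios of FPKM between members in Control, HFLN and HFOB on a log axis, with bars for the range that the deposited intervals allow. Ratios of Vegfa to Vegfb, Vegfc and Kdr are lowest in HFOB (0.592, 5.36 and 4.70) and the ratio of Angpt2 to Angpt1 is highest there (3.10), with every set of bars overlapping.

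Receptor levels were also read against endothelial markers, as a measure of receptor RNA relative to vessel RNA. All 27 listed markers had a row, 26 reached 1 FPKM (Tal1 only in HFLN, where it is highest, at 1.08) and none was at 0. Their geometric mean was 14.4, 14.1 and 13.6 FPKM, and Pecam1, an adhesion molecule of all endothelium, stood at 33.4, 31.0 and 29.8. Kdr reached 83.7%, 92.6% and 89.9% of that mean, Flt4 63.3%, 67.4% and 68.3%, Tek 47.2%, 49.6% and 49.3%, and Flt1 30.8%, 33.9% and 30.0%. Kdr, Flt4 and Tek thus stood slightly higher per endothelial marker in both groups on the high-fat diet, by log2 changes of 0.06 to 0.15, which are small beside the intervals.

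In HFOB against Control 1 endothelial marker was higher past the smaller threshold (Sox17) and 2 were lower (Apln and Ecscr) among 26 tested. Of all rows, 3.79% were higher and 7.08% lower by that much, so these counts do not set the markers apart. The median log2 fold of the markers was -0.10, or -0.03 with equal protein-coding sums. Apln, the peptide ligand apelin that sprouting endothelium makes, was found at 11.0 FPKM (interval 6.56 to 15.5), 8.23 (4.53 to 11.9) and 6.65 (3.66 to 9.63). Its order as deposited was that of Vegfa. Sox17, a transcription factor of arterial endothelium and of other epithelia, ran the other way, at 8.17, 10.0 and 11.9 FPKM. Cldn5, a tight-junction protein of endothelium, had the highest log2 fold in HFOB against HFLN, with 71.3 and 90.4 FPKM. In HFLN against Control 2 markers were lower past the threshold and 0 higher, beside 7.83% and 5.58% of all rows. The marker median there was -0.01, or 0.18 with equal protein-coding sums.

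The wider VEGF and Tie pathway was read from 27 further genes, of which all 27 were tested, Svep1 only through HFOB, where it is highest, at 1.02 FPKM. Past a log2 fold of 0.32, 1 was higher and 3 lower in HFLN against Control. The counts were 0 and 3 in HFOB against Control and 0 and 2 in HFOB against HFLN. Of all rows, 5.58%, 3.79% and 4.84% were higher and 7.83%, 7.08% and 5.77% lower by that much. The list medians were 0.04, -0.03 and -0.04. With equal protein-coding sums these medians were 0.23, 0.05 and -0.16. Adamts1 passed the rule for a call, in HFOB against Control. This secreted protease of the ovulating follicle, which also inhibits vessel growth, was present at 31.0 FPKM (interval 20.6 to 41.3), 19.2 (12.5 to 25.8) and 13.9 (8.97 to 18.9). Its intervals in Control and HFOB do not meet, and the HFOB level was 0.451 of the Control level.

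Dll4, the Notch ligand that VEGF signalling induces in endothelial tip cells, reached 8.04 FPKM (interval 4.47 to 11.6), 6.07 (3.20 to 8.93) and 5.50 (2.78 to 8.21). Rcan1, an inhibitor of calcineurin that endothelium makes in response to VEGF, had 14.7, 11.0 and 11.4 FPKM. For both, Control was highest and the intervals overlapped. Angpt4, a further ligand of Tek, was highest in HFLN, at 5.06, 6.58 and 4.93 FPKM, as was Angptl1, an angiopoietin-like secreted protein, at 4.31, 5.35 and 4.12 with intervals down to 0.

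On the higher side in HFOB were Thbs1, thrombospondin-1, an inhibitor of vessel growth, at 117, 122 and 142 FPKM, and Grb14, an adaptor of receptor tyrosine kinases, at 134, 144 and 167. Angptl6, a further angiopoietin-like protein, had 3.10, 2.63 and 3.39 FPKM, each with an interval down to 0. None of these passed a log2 fold of 0.32 against Control in HFOB. The co-receptors of VEGF, Nrp1 (in a row shared with Mir1903) and Nrp2, had log2 folds against Control of 0.21 and 0.25 in HFLN and of 0.16 and 0.24 in HFOB, and were named after their values were seen. The ligand Vegfd and the Tek relative Tie1, likewise chosen then, differed by log2 folds of at most 0.16 in any comparison.

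**Figure D4:**
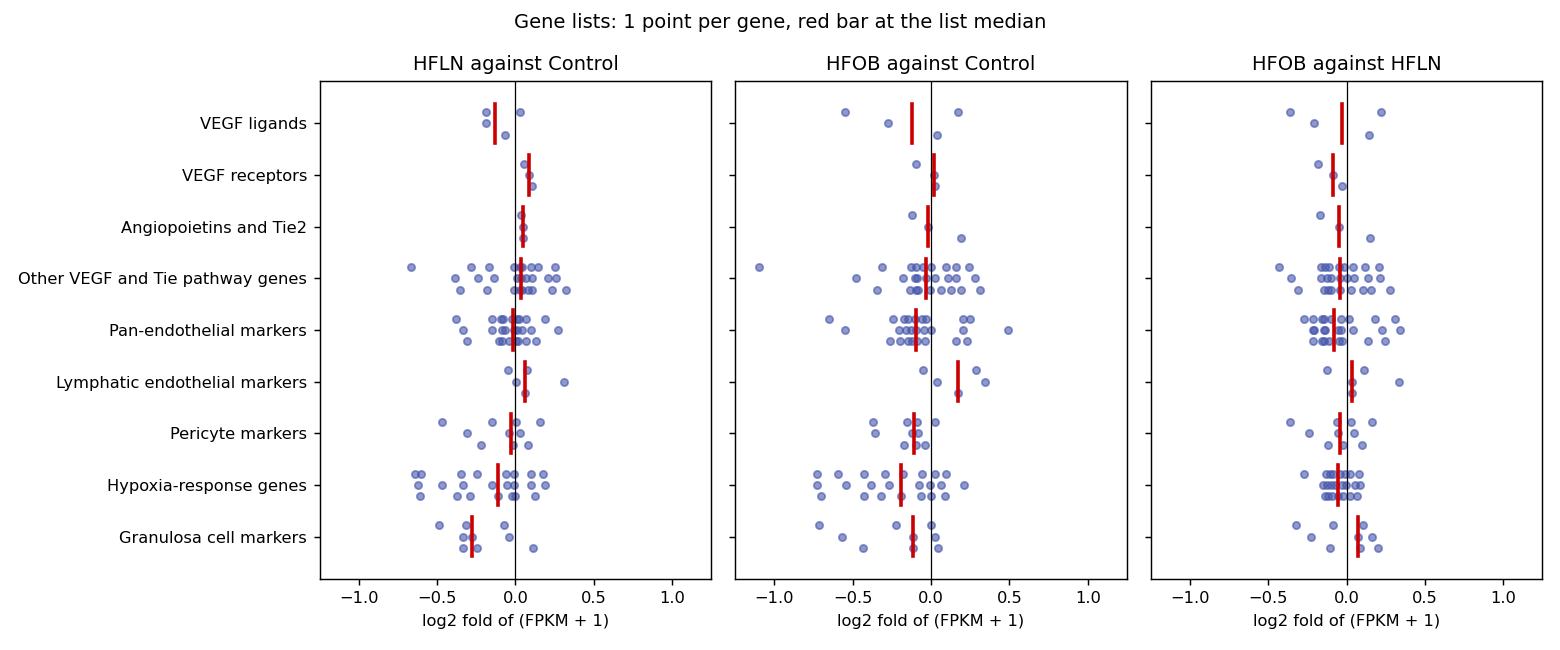
Log2 fold of (FPKM + 1) of each tested gene of 9 lists in the 3 comparisons, with a red bar at each list's median. VEGF receptors and the angiopoietin group cluster near 0, the hypoxia-response list extends to -0.73 in HFOB against Control, and Adamts1 is the lowest point, at 13.9 FPKM against 31.0.

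Vegfa is a textbook target of hypoxia-inducible factors, and its level was therefore set beside 23 other genes of the hypoxia response. Of these, 8 were lower past a log2 fold of 0.32 in HFLN against Control and 0 higher, beside 7.83% and 5.58% of all rows. In HFOB against Control 8 were lower and 0 higher, beside 7.08% and 3.79%. The medians of the 23 genes were -0.11 and -0.19. None passed the rule for a call. In HFOB against HFLN 0 passed the smaller threshold in either direction and the median was -0.05. Since the same controls stand in both of the first comparisons, their counts are not independent. With protein-coding sums made equal, the medians were 0.09 in HFLN and -0.10 in HFOB against Control. The sign in HFLN thus turns with the scaling, which also moved the median of protein-coding rows to 0.20 and 0.07. Measured from the median of protein-coding rows as deposited, the list lay at -0.12 in HFLN and -0.18 in HFOB.

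Slc2a1, the glucose transporter GLUT1, amounted to 31.8 FPKM (interval 19.2 to 44.3), 20.0 (12.5 to 27.4) and 18.7 (11.6 to 25.9). Egln3, an oxygen-sensing hydroxylase, stood at 5.22, 4.59 and 3.63 FPKM and had the lowest log2 fold of the list in HFOB against HFLN, -0.27. Vegfa at -0.36 lay below every gene of this list in that comparison. Pdk1, a kinase that inhibits pyruvate dehydrogenase, was the highest of the list against Control, at 5.56, 6.49 and 6.60 FPKM with intervals that come close to 0 or reach it, and P4ha2, a collagen prolyl hydroxylase, was the highest in HFOB against HFLN, at 11.9 and 12.7. The genes of the factors themselves, Hif1a, Epas1 and Arnt, are part of this list and were chosen here after their values were seen. Hif1a stood at 31.2, 29.9 and 27.4 FPKM and Epas1 at 38.5, 38.3 and 36.4. Arnt was lowest in Control, at 18.2, 19.9 and 19.5. An order of Control above HFLN above HFOB was found in 13 of 23 genes of the list, beside 16.8% of all rows, and with equal protein-coding sums in 10 of 23, beside 1270 of 16929 rows.

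**Figure D5:**
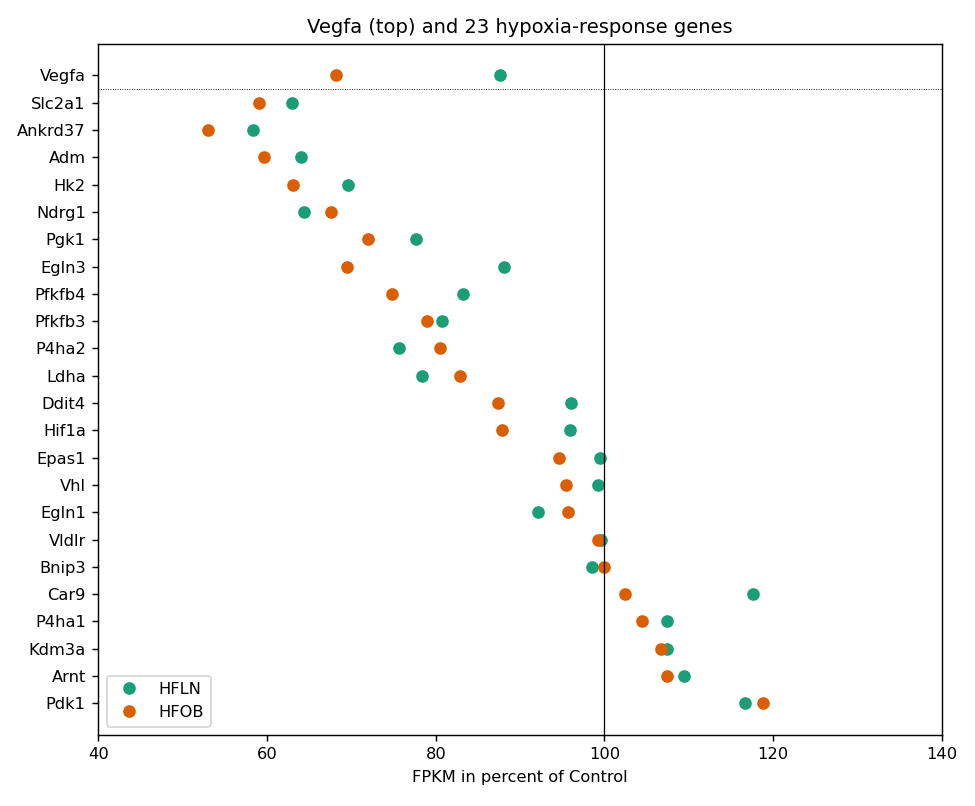
FPKM of Vegfa and of 23 hypoxia-response genes in HFLN and HFOB, in percent of the Control level, without intervals. Vegfa stands at 87.7% in HFLN and 68.1% in HFOB, and the gap between its 2 points is wider than that of Slc2a1, drawn next to it. Egln3, at 0.880 and 0.695 of the Control level, has a gap close to that of Vegfa.

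Markers of granulosa and luteal cells, which make Vegfa, were read in the same way. None of either list passed the rule for a call in any comparison, and all their intervals overlapped between groups. Granulosa cell markers had medians of -0.28 and -0.12 against Control in HFLN and HFOB. They were lower than Control in 8 of 9 cases and 6 of 9, beside 49.9% and 53.0% of all rows. Summed, they gave 2759, 2272 and 2403 FPKM, and none was at 0. Equal protein-coding sums gave medians of -0.08 and -0.03. Cyp19a1, the aromatase of granulosa cells, stood at 20.7, 14.5 and 12.2 FPKM, and Inhba, a subunit of activin and inhibin, at 74.9, 63.1 and 50.2, both in the order that Vegfa has as deposited. Amh, the hormone of small growing follicles, was level, at 181, 176 and 187 FPKM, and the nuclear receptor gene Nr5a2 had 79.5, 85.8 and 80.9. The row of the oestradiol-forming enzyme Hsd17b1, shared with Coasy, Mlx and Naglu, had 329, 264 and 303 FPKM. Luteal markers had medians of 0.00 and -0.19 against Control (0.21 and -0.09 with equal protein-coding sums) and summed to 10343, 8018 and 8437 FPKM, and none was at 0. Lhcgr, the receptor of luteinising hormone, stood at 134, 143 and 104 FPKM, and Star, which carries cholesterol into mitochondria, at 147, 230 and 169. Akr1c18, which breaks down progesterone and shares a row with Akr1c12, had 2672, 1084 and 1496 FPKM with intervals down to 0. Hsd3b1, at 3111, 2831 and 2949 FPKM, and Cyp11a1, at 3608, 3054 and 3120, also had intervals down to 0. Most of the luteal sums lies in these rows, so the sums are uncertain. The part of these cells in the level of Vegfa was not tested.

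Markers of other tissues that the samples could hold were summed as well. None of the oviduct, red blood cell or macrophage markers passed the rule for a call in any comparison, and no marker of these lists or of adipocytes was at 0. Oviduct and cilia markers (9 genes) had geometric means of 12.2, 19.6 and 9.13 FPKM. In HFOB against HFLN all 9 were lower past a log2 fold of 0.32, beside 5.77% of all rows, with a median of -1.04, or -1.16 with equal protein-coding sums. Against Control their medians were 0.59 in HFLN and -0.29 in HFOB, or 0.80 and -0.22 with equal sums. Their summed level, 451, 567 and 365 FPKM, was carried by Ovgp1, the oviduct glycoprotein, at 369, 432 and 307 FPKM with an interval down to 0 in HFLN.

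Adipocyte markers summed to 292, 269 and 320 FPKM. In HFOB against Control 5 of 10 were higher and 5 lower, beside 47.0% and 53.0% of all rows. All 5 higher and 3 lower ones passed the smaller threshold, beside 3.79% and 7.08% of rows. The median log2 fold of the adipocyte markers was 0.15, or 0.24 with equal protein-coding sums. In HFOB against HFLN 7 were higher and 3 lower, beside 47.7% and 52.2% of all rows. Past that threshold were 5 and 2, beside 4.84% and 5.77%. The median there was 0.26, or 0.15 with equal sums. Lep is among the higher markers in both comparisons and was tested only through its level in HFOB. Nothing is therefore read from these counts and medians. On the lower side Cfd, the secreted protease adipsin, had 103, 86.4 and 62.2 FPKM, with intervals from 0 to 744, 678 and 591. On the higher side Fabp4, a fatty-acid carrier also found in endothelium and chosen after its values were seen, had 77.2, 87.2 and 139. Lep, the hormone leptin, met the rule for a call in HFOB against both other groups, but it entered the rows tested only through HFOB, the group where it is high, and nothing is read from this call. It had 0.223 and 0.332 FPKM in Control and lean mice and an interval from 0.759 to 3.44 FPKM in obese mice. Sums were 246, 138 and 183 FPKM for 4 rows of red blood cell genes and 484, 460 and 504 for 8 macrophage markers. With equal protein-coding sums Vegfa, Pgf, Flt1 and Angpt1 had the order of the oviduct markers, HFLN above Control above HFOB. Vegfa and Pgf did not have it as deposited. The log2 fold of Vegfa in HFLN against Control was then only 0.02. That scaling put 86.1% of protein-coding rows tested above Control in HFLN. Flt1, Angpt1 and Tek had that order as deposited. The share of all rows with that order was not counted, so nothing is read from it. The part of these tissues in the level of Vegfa was not tested.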

How the data were processed

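Ovarian RNA of 9 mice was sequenced by the submitters as Control, HFLN and HFOB (3 each). The submitters' processing notes name Cuffdiff 2.2.1.3, Cufflinks 2.2.1.0, Trimmomatic 0.32.3 and TopHat2 2.1.0, and the build mm10. Per the file headers, the authors deposited 1 FPKM per group and gene with a lower and an upper bound. The sources used here give neither the annotation nor the scaling between libraries nor the strand setting.

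Of 36886 RefSeq identifiers, 99.2% matched RefSeq GRCm38.p6, the assembly behind mm10, which gave symbols and spans. Where a symbol had several rows, the one of highest mean level was used. Rows needed at least 1 FPKM in a group and status OK. Folds used log2(FPKM + 1). A call needed a fold of at least 2 and intervals that do not overlap. The calling step was tested on simulated data. Python 3.11.15, pandas 2.3.3 and matplotlib 3.10.9 were used.

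The members and lists were chosen with earlier results of these data known. Named were all members and, by rule, called genes and those with the highest and lowest log2 fold of a list (2 each for the pathway list, otherwise 1). For the oviduct, adipocyte, red blood cell and macrophage lists sums, medians and a few of these genes are given. Alternatives covered the pseudocount, the filter, the scaling, the choice of row and the thresholds. The ratios of Vegfa to Vegfc and to Kdr were added after the data were seen.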

Additional observations from a re-analysis of the deposited data

How the results depend on the processing

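No paired analysis was possible because the table holds 1 value per group, which also leaves no replicate to leave out. The count of members called stayed at 0 under every alternative tried, including intervals narrowed to 50% of their width and a fold of 2 without intervals. Of 171 recomputed log2 folds of single members, 151 lay within 0.1 of the value reported, and 19 of the other 20 came from scaling to the sum of protein-coding rows. That scaling gave member medians of 0.23 in HFLN against Control and -0.18 in HFOB against HFLN, and shifted the share of higher rows among all rows past a log2 fold of 0.32 from 41.6% to 84.1% in HFLN against Control, from 34.9% to 55.8% in HFOB against Control and from 45.6% to 25% in HFOB against HFLN. Under it the order of Control above HFLN above HFOB, recounted after the data were seen, was found in 0 of 10 members in place of 2. The log2 fold of Vegfa in HFOB against Control ranged from -0.55 to -0.46. With a pseudocount of 0.1 FPKM, 2 members passed a log2 fold of 0.32 in HFOB against Control, Pgf being the second. A threshold of 1.1-fold was passed by 2, 4 and 7 members in HFLN against Control, HFOB against Control and HFOB against HFLN, and one of 1.5-fold by 0 in each. Relative to Cdh5 alone, the log2 changes in HFOB against Control were 0.087 for Flt1, 0.23 for Kdr, 0.23 for Flt4 and 0.19 for Tek. Adding both Angpt2 rows gave log2 changes of the ratio to Angpt1 of 0.26 in HFOB against Control and 0.23 in HFOB against HFLN. Causes of these shifts beyond the construction of each alternative were not tested. Depth is unknown, and the reach of the members' intervals, 33.6% to 70.3% of the value on each side, limits what could be seen.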

Other observations

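Lymphatic endothelial markers were read in the same way. Of 5 tested, 4 were above Control in HFLN and 4 in HFOB, beside 50.1% and 47.0% of all rows. Median log2 folds were 0.06 and 0.17 beside 0.00 and -0.01 for all rows. Both list medians are the folds of Prox1. That gene was below 1 FPKM in Control and entered the rows tested only through HFLN and HFOB, where it is higher. Nothing is therefore read from these counts and medians. Mmrn1, a matrix protein of lymphatic endothelium, had 5.40, 6.95 and 7.13 FPKM in Control, lean and obese mice. Reln, a secreted glycoprotein also made by lymphatic vessels, had 1.82, 1.73 and 2.44 FPKM, and Prox1, the transcription factor that specifies lymphatic fate, 0.928, 1.01 and 1.17, chosen after its values were seen. Pdpn was level, at 30.3, 32.0 and 29.2 FPKM. The row of Lyve1, shared with Mrvi1 and counted as higher in both groups, had 17.2, 17.3 and 17.8 FPKM. None passed the rule for a call.

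Pericyte markers, whose cells are a source of Angpt1, were below Control in 9 of 10 cases in HFOB, beside 53.0% of all rows. The median log2 fold of these markers was -0.11, or -0.04 with protein-coding sums made equal. Under that scaling 7 of 10 were below Control, where 70.5% of protein-coding rows tested lay above it. The intervals of every pericyte marker overlapped between the groups. Pdgfrb, the receptor that recruits pericytes, had 34.9, 34.5 and 34.0 FPKM and was chosen after its values were seen. Channel subunits of these cells stood lower in HFOB than in Control: Abcc9 at 12.8, 12.9 and 9.80 FPKM and Kcnj8 at 10.2, 7.07 and 7.65. Rgs5, a regulator of G-protein signalling, was highest in HFLN, at 30.6, 34.3 and 28.9 FPKM. Higd1b had 3.59, 3.86 and 3.67 FPKM and Cox4i2, a subunit of cytochrome c oxidase, 23.9, 19.0 and 21.4. The intervals of Cox4i2 and of Ndufa4l2, also counted, reach down to 0 in each group.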
